A study of Mus musculus with 4 samples.

Results

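Peaks of RUNX1 and of the histone mark H3K27me3 were examined at 7 mouse loci that encode the RUNX transcription factors, their partner and the ETO family of corepressors. The members were Runx1, Runx2, Runx3, Cbfb, Runx1t1, Cbfa2t3 and Cbfa2t2, 7 of the 55413 genes in the annotation. A peak was assigned to a member when its summit, the base of highest signal, lay inside the gene body or within 50 kb of it in mm10. By this rule 42 of 21831 RUNX1 peaks belonged to the loci in the +DOX-labelled library, and 39 of 18389 in the -DOX-labelled library. Of the H3K27me3 peaks 4 of 6356 and 5 of 7233 did, in the libraries titled untreated and DOX. Summits were widened by 200 bp on either side and overlapping ones joined over both RUNX1 lists, after which 52 of 24972 sites lay at the loci, and 28 of these had a start of the member itself as their nearest transcription start. The outermost site inside the 50 kb lay 48.2 kb from Cbfa2t3 at percentile 67.92 of its list, with peaks ranked by -log10 q, and the first one outside lay 50.6 kb from Runx3 at percentiles 99.02 and 94.74.

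The cells were hematopoietic progenitors that float in culture, differentiated in vitro from mouse embryonic stem cells and labelled as day 2, although the sources used here do not all give the same day. The cells of every library carried a Tet-on transgene for dnFOS, which stands for dominant-negative FOS. Doxycycline (DOX) switches this peptide on, and it keeps AP-1 factors of the JUN family from chromatin. The comparison addresses which RUNX1 binding sites depend on AP-1. Each condition had 1 library. No difference between libraries could therefore be set against replicate error, and no p-value is given. For RUNX1 the labels give one library with Doxycycline and one without, but the run names written in the peak lists say the reverse. Libraries are called here by their labels, and every direction turns around if the run names are right. For H3K27me3 the title and the treatment of each library contradict each other, so these libraries were put in no condition. Their antibody label is H3K27me3, but the protocol on the same records describes a RUNX1 antibody, and their peaks had a median width of 180 and 122 bp. Expression was not measured in these libraries, so the cell type was not checked against marker genes.

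RUNX1, RUNX2 and RUNX3 bind the same short DNA word through the Runt domain, and CBFB, which does not itself contact DNA, stabilises that binding. RUNX1 is required for the endothelial to hematopoietic transition, RUNX2 directs bone formation and RUNX3 acts in T cells and neurons. Each of the Runx genes is transcribed from a distal promoter, P1, and a proximal promoter, P2. The ETO proteins encoded by Runx1t1 (ETO), Cbfa2t3 (ETO2) and Cbfa2t2 (MTGR1) recruit histone deacetylases, and RUNX1T1 is the fusion partner of RUNX1 in a translocation of acute myeloid leukaemia. H3K27me3 is the mark left by Polycomb repressive complex 2.

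The P1 promoters of all 3 Runx genes held the same arrangement of RUNX words, 2 copies of ACCACA in the same direction with 2 bases between them. ACCACA is the reverse complement of TGTGGT. The arrangement was looked for after the sequences had been read. It was present in 7 of 32851 RefSeq promoters of 300 bases (0.0213%). These were the P1 promoters of Runx1, Runx2 and Runx3, the promoter of Gm16225, which lies over Runx3 P1, and those of Gm12236, Gm15462 and Olfr24. Among the 200 bp windows at RUNX1 sites 40 of 24972 held it (0.16%), and 2 of these were the P1 sites of Runx1 and Runx3. The 30 bases around each pair are shown because they are the feature that the paralogous promoters share, with the pair in capitals and each gene's own strand read from the genome of build GRCm38 (mm10).
Runx1 P1, chr16:92826025-92826054, minus strand: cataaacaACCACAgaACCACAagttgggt
Runx2 P1, chr17:44814583-44814612, minus strand: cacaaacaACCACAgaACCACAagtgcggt
Runx3 P1, chr4:135120503-135120532, plus strand: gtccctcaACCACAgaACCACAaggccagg
The centre of the pair lay 109 bp after the first annotated P1 start in Runx1, 199 bp after it in Runx2 and 134 bp before it in Runx3. A RUNX1 summit lay 37 bp from the pair in Runx1 and 38 bp from it in Runx3. At Runx2 no RUNX1 summit of either list lay within 1500 bp of P1, and the nearest site was 15230 bp from the pair. The presence of the words is a description of the sequence and does not show that they are bound.

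The 200 bp at the summits of the sites on which the Runx1, Runx3 and Cbfa2t3 results turn are shown next, with the RUNX word TGTGGT or TGCGGT on either strand in capitals. They are the strongest intronic sites of Runx1, an intronic site listed in 1 library only, the Runx3 P1 site and the strongest sites of Cbfa2t3.
Runx1 3.88 kb after P1, chr16:92822174-92822373, plus strand: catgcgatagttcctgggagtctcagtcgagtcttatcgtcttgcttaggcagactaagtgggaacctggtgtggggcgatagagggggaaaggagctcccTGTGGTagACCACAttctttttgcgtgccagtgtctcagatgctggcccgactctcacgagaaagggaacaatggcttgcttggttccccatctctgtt
Runx1 24.4 kb after P1, chr16:92801665-92801864, plus strand: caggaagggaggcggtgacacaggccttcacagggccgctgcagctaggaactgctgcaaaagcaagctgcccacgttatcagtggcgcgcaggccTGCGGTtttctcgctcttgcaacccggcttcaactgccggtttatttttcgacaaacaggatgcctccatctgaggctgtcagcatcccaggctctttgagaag
Runx1 25.1 kb after P1, chr16:92800933-92801132, plus strand: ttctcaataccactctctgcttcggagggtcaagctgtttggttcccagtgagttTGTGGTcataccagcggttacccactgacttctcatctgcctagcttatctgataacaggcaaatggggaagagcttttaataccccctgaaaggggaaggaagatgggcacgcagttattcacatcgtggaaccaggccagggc
Runx3 P1, chr4:135120380-135120579, plus strand: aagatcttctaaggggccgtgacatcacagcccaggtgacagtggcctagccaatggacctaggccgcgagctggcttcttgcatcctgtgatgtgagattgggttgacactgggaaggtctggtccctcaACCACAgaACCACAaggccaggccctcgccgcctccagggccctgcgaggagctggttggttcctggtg
Cbfa2t3 20.8 kb before P1, chr8:122719834-122720033, plus strand: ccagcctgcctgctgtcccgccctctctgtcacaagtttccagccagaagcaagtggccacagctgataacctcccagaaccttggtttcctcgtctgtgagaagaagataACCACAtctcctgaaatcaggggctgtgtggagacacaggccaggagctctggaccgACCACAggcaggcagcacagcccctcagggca
Cbfa2t3 1.8 kb before P1, chr8:122700814-122701013, plus strand: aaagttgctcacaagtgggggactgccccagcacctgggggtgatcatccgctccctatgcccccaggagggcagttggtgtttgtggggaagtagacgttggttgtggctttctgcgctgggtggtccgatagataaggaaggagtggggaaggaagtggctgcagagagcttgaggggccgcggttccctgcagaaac
Cbfa2t3 P1, chr8:122699125-122699324, plus strand: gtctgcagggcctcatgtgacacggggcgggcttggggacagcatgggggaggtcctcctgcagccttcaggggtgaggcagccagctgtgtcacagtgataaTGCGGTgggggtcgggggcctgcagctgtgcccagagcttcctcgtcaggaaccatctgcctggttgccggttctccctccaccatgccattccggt
The word lay 4 bp from the summit in the site 3.88 kb after Runx1 P1 and 1 bp from it in the site 24.4 kb after P1. The Cbfa2t3 site 1.8 kb before P1 held no copy of it. Over all 52 member sites 24 held the word (46.2%, Wilson 95% interval 33.3 to 59.5), against 37.4% of all 24972 sites and 20.2% of windows shifted by 2000 bp from the member sites.

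Across the 7 loci 29 of 52 RUNX1 sites had a summit in both lists (55.8%, interval 42.3 to 68.4), against 56.8% of all sites. A further 13 were listed only in the +DOX-labelled library (25%, 15.2 to 38.2; all sites 28.4%), and 10 only in the -DOX-labelled library (19.2%, 10.8 to 31.9; all sites 14.8%). With the longer list cut to its 18389 strongest peaks, so that both lists were of equal length, 9 member sites were +DOX only and 11 -DOX only, so which class was the larger depended on list length. At full length the division between the lists at the members was near that of the whole series. The intervals cover counting error only, and the sequencing depth behind the lists is unknown. Peaks were ranked by the -log10 q of the caller within their own list, and the percentile is the rank, counted from the weakest peak, as a percentage of that list. Sites in both lists had a median percentile in the better list of 83.59, against 70.51 over all sites in both lists. The sites listed once ranked lower, with medians of 37.86 for +DOX only and 21.13 for -DOX only (27.14 and 23.1 over all such sites).

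**Figure D1:**
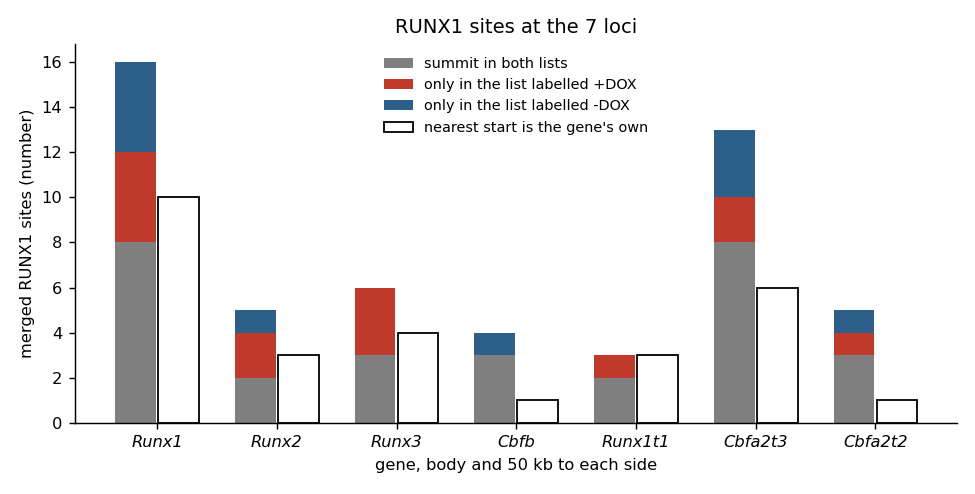
Number of merged RUNX1 sites at each gene, stacked by the list in which they have a summit (coloured bars), and the number whose nearest transcription start belongs to the gene (open bars). Runx1 with 16 sites and Cbfa2t3 with 13 hold 29 of the 52, and of the sites nearest to their own gene Runx1 has 10 and Cbfa2t3 has 6.

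Runx1, on the minus strand at chr16:92601466-92826149, carried 16 RUNX1 sites and no H3K27me3 peak of either library. Both lists had a summit at 8 of the sites, 4 were listed only in the +DOX-labelled library and 4 only in the -DOX-labelled library. A Runx1 start was nearest to 10 of the sites, and 8 of the 21938 protein-coding genes had more sites of their own. These 8 were Gse1 with 16 sites, Map3k5, Sgms1 and Tns3 with 12 each, and Kalrn, Magi1, Pde4d and Rere with 11 each. By the number of all 16 sites in gene and flanks, Runx1 was at percentile 99.78 of protein-coding genes. Per 100 kb of gene and flanks these were 4.928 sites, at percentile 86.05, so its rank was lower once length was counted.

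Both Runx1 promoters had RUNX1 peaks in both lists. At P1 the summit lay 146 bp after the start in the untranslated part of exon 1. The P1 peak had a fold enrichment over the local background of 7.276 and a -log10 q of 34.69 in the +DOX-labelled library, at percentile 92.46. In the -DOX-labelled library the same peak had a fold of 4.044, a -log10 q of 10.11 and percentile 59.45. P1 therefore ranked 33.0 percentile points higher in the list labelled +DOX, a change larger than at 90.56% of all sites in both lists. Near P2, 128.8 kb downstream, there was a summit 124 bp before the start at percentiles 44.72 (+DOX) and 42.34 (-DOX). Another, 554 bp after that start, was at 91.54 and 88.42. The latter held the RUNX word TGTGGTT 82 bp from its summit and the AP-1 word TGACTCA. Only 2 of the 52 member sites held TGACTCA (3.85%, against 4.97% of all sites), and both were at Runx1.

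The long intron between the promoters held the highest percentile reached at the 7 loci in either list. The site lay 3.88 kb after P1, in intron 2 of the longest transcript, with a fold of 10.32 and a -log10 q of 72.37 in the +DOX-labelled library, and 12.42 and 94.01 in the -DOX-labelled library. These values put it at percentiles 98.24 and 99.04, and in the +DOX-labelled library 1 Cbfa2t3 site, at 98.81, ranked above it. The site 24.4 kb after P1 followed at 93.65 and 95.01, with folds of 9.351 and 10.78. A site 110 kb after P1, which is 18.3 kb before P2, was at 91.69 and 91.54. The percentile in the +DOX-labelled library minus that in the -DOX-labelled library was -0.80, -1.37 and 0.15 points at these intronic sites and 33.0 at P1. Percentiles leave little room to differ near the top of a list, so the small differences do not show equal signal. At the site 3.88 kb after P1 a difference of -0.80 points went with -log10 q values of 72.37 and 94.01. An intronic enhancer downstream of P1 is known to drive Runx1 in emerging blood cells, but enhancer coordinates were not used here.

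Sites listed once lay beside these. The site 25.1 kb after P1 was listed only in the +DOX-labelled library, with a fold of 7.187, a -log10 q of 24.46 and percentile 86.76. No peak of the other list overlapped it, and the nearest summit there was 732 bp away, in the site 24.4 kb after P1. This was the highest-ranked of the 13 member sites listed only in the +DOX-labelled library. Its 200 bp held a RUNX word and the GATA word AGATAA. A site 61.1 kb after P1, also +DOX only, was at percentile 51.75 with a TGTGGTT word 1 bp from its summit, and another in intron 4 at 4.805. The site of the -DOX-labelled library alone that was nearest to Runx1, 11.7 kb before P2, was at 36.66. Farther out, the site 30.8 kb before P1 was in both lists at 47.38 (+DOX) and 76.84 (-DOX), a difference of -29.45 points. At the far end of the gene a summit in the last exon was at 87.83 and 87.12.

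**Figure D2:**
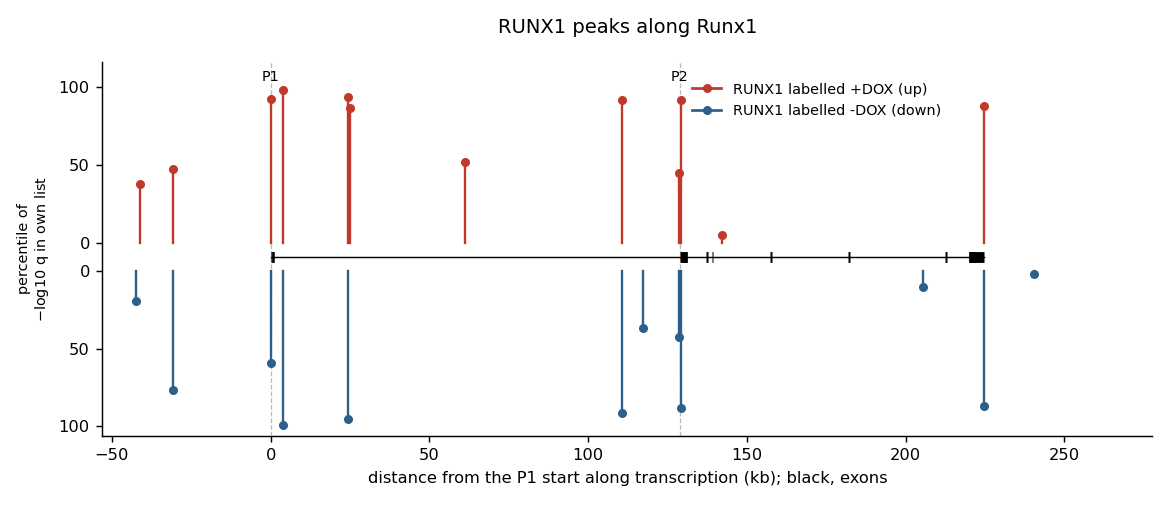
RUNX1 peaks along Runx1 by distance from the P1 start in kb, with the percentile of -log10 q in the own list upward for the +DOX-labelled library and downward for the -DOX-labelled library. Black marks are exons of protein-coding transcripts. The intronic sites at 3.88, 24.4 and 110 kb stand at like heights in both lists, near the top of the scale. The site at 25.1 kb has a line in the upper list only.

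Runx2, the regulator of osteoblasts, is on the minus strand at chr17:44495987-44814797. It carried 5 RUNX1 sites over 318.8 kb of gene, 1.194 per 100 kb with the flanks (percentile 39.42), and 3 were nearest to Runx2. P1 had no RUNX1 site in either list. Near P2, 78.15 kb downstream, 2 sites were listed in the +DOX-labelled library alone, at percentiles 26.58 and 18.45. No peak of the list labelled -DOX overlapped either, and its nearest summit was 41529 bp from the first. The remaining site nearest to Runx2, 15.0 kb before P1, was in both lists at 46.76 and 42.51, and 82% of its window was soft-masked repeat. The highest-ranked site at the locus, at 70.55 and 55.6, lay in intron 2 but 13 bp from a start of Supt3, a gene that overlaps Runx2. A region at P2, chr17:44734754-44735096, was listed in both H3K27me3 libraries, at percentiles 41.82 (titled untreated) and 34.37 (titled DOX). Its summit lay 457 bp from the nearer of the P2 RUNX1 summits. A second H3K27me3 region 2.96 kb after P1 was listed in the library titled DOX alone, at percentile 3.733.

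Runx3, on the plus strand at chr4:135120652-135177990, carried 6 RUNX1 sites, 3 in both lists and 3 in the +DOX-labelled library alone. The promoters of Runx3 differed in both marks. At P1 a RUNX1 summit lay 172 bp before the start, with a fold of 11.99 and a -log10 q of 51.15 (+DOX, percentile 96.24) and of 10.83 and 41.45 (-DOX, percentile 94.36). No H3K27me3 peak lay at P1. Its nearest annotated start, 33 bp away, was that of the noncoding gene Gm16225, so by the nearest-start rule this site is not counted to Runx3. At P2, 31.84 kb downstream, the RUNX1 site was at 32.62 and 39.0 and lay under H3K27me3 peaks of both libraries. That H3K27me3 region, chr4:135152234-135153294, had a -log10 q of 14.9 in the library titled untreated and 6.894 in the library titled DOX, at percentiles 86.38 and 64.24. The P2 window was the most GC-rich of the 52, at 84.0%, and held none of the RUNX words. A further H3K27me3 peak in intron 1 was listed in the library titled untreated alone, at percentile 56.18.

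Of the Runx3 sites in the +DOX-labelled library alone, the one 35.0 kb before P1 was at percentile 76.77, with the PU.1 word GAGGAAGT and 1 RUNX word in its window. The other 2, in intron 4 and 72.3 kb after P1, beyond the end of the gene, were at 10.41 and 13.56, and 73.5% of the window of the former was soft-masked. A site 85.7 kb after P1 was in both lists at 83.24 and 73.52. Runx3 had no site of the list labelled -DOX alone.

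Cbfb, which encodes the shared partner, is on the plus strand at chr8:105170674-105217989. Its 4 sites included 1 of its own, at the start itself, in both lists at percentiles 87.1 and 88.55 with a fold of 6.658 and 7.182. The window held the PU.1 word and no RUNX word. The other 3 were downstream and nearest to D230025D16Rik, B3gnt9 and Tradd. The Cbfb start thus held the single RUNX1 site in the body of the gene, and 4137 protein-coding genes had more sites of their own. The only H3K27me3 region at the locus, 704 bp from a start of Tradd, was listed in the library titled DOX alone at percentile 9.263.

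Among the ETO genes the sites were concentrated at Cbfa2t3, which encodes ETO2, a corepressor of erythroid and megakaryocytic progenitors. The gene, on the minus strand at chr8:122625141-122699109, carried 13 sites, 7.473 per 100 kb (percentile 95.87), with 8 in both lists, 2 only +DOX and 3 only -DOX. All 6 sites nearest to Cbfa2t3 were in both lists, and 65 protein-coding genes had more sites of their own. The 3 highest-ranked sites lay upstream of or at P1. The site 1.8 kb before P1 had a fold of 12.26 and a -log10 q of 85.11 (+DOX, percentile 98.81) and of 9.008 and 52.29 (-DOX, percentile 96.31). The site 20.8 kb before P1 was at 97.59 and 98.07, though a noncoding start, C230057M02Rik, was nearer to it. The P1 summit, 116 bp before the start, was at 95.41 and 95.7. P2, 20.41 kb downstream, had a weaker site at 36.64 and 28.7.

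Within Cbfa2t3 some sites moved in rank between the lists. The site 13.5 kb after P1 was at 57.07 (+DOX) and 16.45 (-DOX), a change of 40.62 points and the largest of the 29 member sites in both lists. The site 33.7 kb after P1 was at 82.39 and 55.75. The site 13 kb before P1 moved the other way, at 68.45 and 83.59. The 5 sites listed once all lay downstream of the gene and were nearest to other genes. A pair of these, near Trappc2l and Galns, had summits 427 bp apart and peaks that overlapped the peak of the other list, so their division into +DOX only and -DOX only rests on the summit positions. No H3K27me3 peak lay at Cbfa2t3.

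**Figure D3:**
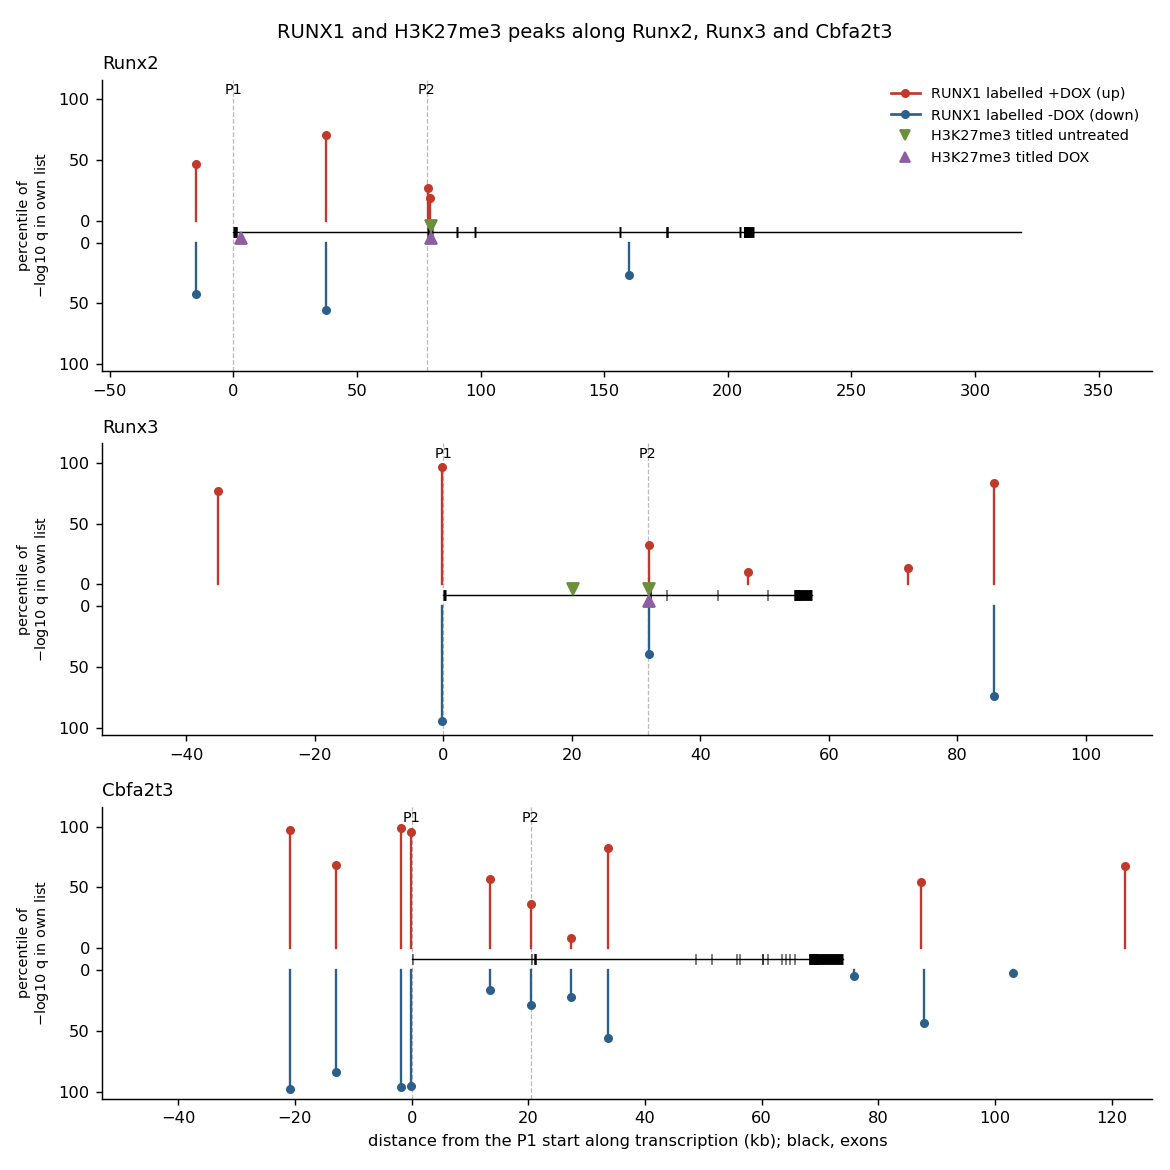
RUNX1 peaks along Runx2, Runx3 and Cbfa2t3 by distance from P1 in kb, drawn as percentiles of -log10 q upward (labelled +DOX) and downward (labelled -DOX), with triangles where H3K27me3 peaks are listed. Runx3 P1 carries a high RUNX1 peak and no triangle, Runx3 P2 and Runx2 P2 carry triangles of both H3K27me3 libraries, and Cbfa2t3 has none.

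Runx1t1, which encodes ETO, is on the plus strand at chr4:13743436-13893649 and had 4 groups of starts over 41.35 kb. RUNX1 sites of both lists lay at P1 (percentiles 72.01 and 56.25) and at P2 (35.04 and 65.51), whereas P3 and P4 had none. The difference at P2, +DOX minus -DOX, was -30.47 points. The remaining site, 62.4 kb after P1, was listed in the +DOX-labelled library alone at 66.78 with a fold of 6.968, and its window held 2 GATA words and an ETS word but no RUNX word. The nearest summit of the list labelled -DOX was 54495 bp away. All 3 sites were nearest to Runx1t1, and no H3K27me3 peak lay at the locus.

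Cbfa2t2, which encodes MTGR1, is on the plus strand at chr2:154436481-154539356. Of its 5 sites 1 was its own, 80 bp after P1, in both lists at 66.09 and 67.73. P2, 74.06 kb downstream, had no RUNX1 site. The other 4 lay beyond the end of the gene, and those in both lists were 4 bp from a start of Necab3 (94.01 and 96.17) and 26 bp from a start of E2f1 (60.57 and 73.45).

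Counted by promoter, 11 of the 15 groups of protein-coding starts of the members had a RUNX1 site within 1500 bp in either list (73.3%, interval 48.0 to 89.1), against 36.3% of 30957 such groups in the genome. Both lists had a site at 10 of them (66.7%, 41.7 to 84.8), against 27.9%. The groups in the genome were not matched for expression, so these shares are a description and not a test. The 4 without a site were Runx2 P1, Runx1t1 P3 and P4, and Cbfa2t2 P2. H3K27me3 summits of both libraries lay at 2 of the 15, Runx2 P2 and Runx3 P2, against 6.57% of all groups. In the library titled untreated 8.29% of all groups had one and in the library titled DOX 7.79%, and at the members these were the same 2 promoters. RUNX1 sites lay at both of these as well, a combination found at 2.53% of all groups. Only the Runx3 P2 site itself lay under H3K27me3 peaks, 1 of 52 (1.92%, 0.34 to 10.1). Of all RUNX1 sites 6.19% overlapped a peak of the H3K27me3 list titled untreated, 6.56% one of the list titled DOX and 4.99% peaks of both. Of the 9289 H3K27me3 regions 39.2% were listed in both libraries, and 3 of the 6 at the members were.

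Of the 29 member sites in both lists 4 ranked at least 25 points higher in the +DOX-labelled library, against 15.1% of all 14177 such sites. They were Runx1 P1, the Cbfb neighbour at B3gnt9 (84.61 and 57.02), and the Cbfa2t3 sites 13.5 and 33.7 kb after P1. At least 25 points lower were 2, the site 30.8 kb before Runx1 P1 and Runx1t1 P2, against 7.92%. Over all sites in both lists the change ran from -31.59 at the 5th percentile to 41.85 at the 95th, and every member site lay inside that range. With 1 library of each kind, a change of rank from treatment and one from depth or antibody yield cannot be told apart.

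**Figure D4:**
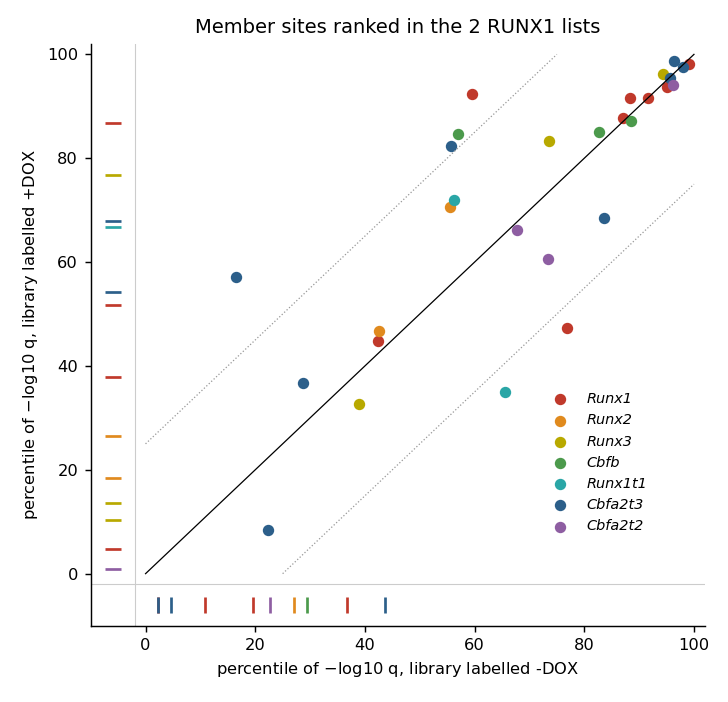
Percentile of -log10 q of each member site in the -DOX-labelled library (horizontal) and +DOX (vertical), with dotted lines 25 points from the diagonal. Sites listed once are ticks in the margins, where 2 ticks coincide at percentile 2.327. The sites near the top right corner, from Runx1, Runx3, Cbfa2t3 and Cbfa2t2, lie close to the diagonal, and 6 sites lie outside the dotted lines. Percentiles leave little room to differ in that corner, so closeness to the diagonal there does not show equal signal.

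By position 17 of the 52 sites were in introns, 8 in untranslated and 1 in coding exons, 11 upstream and 15 downstream of the protein-coding transcripts. The centre lay over 1500 bp from every annotated start in 26 (50%, 36.9 to 63.1), against 46.1% of all sites. Among these distal sites 10 held the GATA word AGATAA (38.5%, 22.4 to 57.5), against 19.7% of all 11505 distal sites. Most of the 10 were at Runx1 and Cbfa2t3, which also held most of the 26 distal sites. The interval treats sites of the same gene as independent. Windows shifted by 2000 bp held the GATA word in 5.77% of cases for the 26 distal member sites and in 10.9% for all distal sites. Other words were searched too. The AP-1 word was in 3.85% (against 7.71% of all distal sites) and the PU.1 word in 7.69% (7.33%). The C/EBP word TTGCNNAA was in 7.69% (9.07%) and the TEAD word CATTCC in 3.85% (11.1%). The ETS words CAGGAA and CCGGAA, each followed by A or G, were in 7 of the 26 distal sites (26.9%, 13.7 to 46.1, against 33.4% of all distal sites). The shorter RUNX word was in 13 (50%, 32.1 to 67.9, against 48.8%) and the longer one, TGTGGTT, in 3 (11.5%, 4.0 to 29.0, against 23.8%). Over all 52 sites the ETS words were in 14 (26.9%, against 29.9%) and TGTGGTT in 6 (11.5%, 5.4 to 23.0, against 14.2%). Of these 6, 3 were at Runx1 (P1, 61.1 kb after P1 and 554 bp after the P2 start), and the others were at Runx3 P1, 15.0 kb before Runx2 P1 and 20.8 kb before Cbfa2t3 P1. In the RefSeq promoters, which covered 9 promoters of 6 members, TGTGGTT was in 3 of 9, the P1 promoters of Runx1, Runx2 and Runx3, against 5.27% of all 32851. The shorter word was in 4, those and Cbfa2t3 P1, against 22.4%.

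A list of 22 genes for RUNX cofactors and partners was chosen with earlier results of these data known. All 22 had a RUNX1 site within 1500 bp of a protein-coding start in either list, against 49.0% of 21856 protein-coding genes. In both lists 20 of the 22 had such a site (90.9%), against 38.3% of those genes. The comparison genes were not matched for expression, which was not measured here, so these shares are a description and not a test. Gse1, which encodes a corepressor-associated protein, had 16 sites of its own, more than any other protein-coding gene. The acetyltransferase gene Crebbp and the Groucho-type corepressor gene Tle4 had 3 each. Gse1 alone of the 22 had an H3K27me3 summit at a start, in both libraries, against 9.06% of protein-coding genes. Of the 7 members 6 had a promoter site in both lists (85.7%), and Runx2 was the exception.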

How the data were processed

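RUNX1 and H3K27me3 ChIP was done on chromatin crosslinked with DSG and formaldehyde, with 2 libraries of each kind. For RUNX1 the authors aligned reads to mm10 with Bowtie2, removed PCR duplicates and ran MACS2 on each library with a q-value cut of 0.05. The submitters' processing notes name Bowtie2 2.2.9 and MACS2 2.1.1 for all libraries. Further steps for H3K27me3 are not given in the sources used here. An input control is not given in the sources used here. The authors deposited, per peak, a ratio (fold enrichment over local background) and -log10 values of the p-value and q-value. Fold and -log10 q were ranked only within a list, because depth is unknown. The authors later filtered peaks by repeats and DNase1 data, and whether that was done to these lists is not known.

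Only the autosomes, X and Y were kept. Summit intervals of 200 bp to either side were merged. Starts, exons and gene bodies came from GENCODE, and starts of a gene's protein-coding transcripts within 2000 bp of each other were grouped as 1 promoter. Sequences came from RefSeq's GRCm38.p6. Motifs were searched as exact words on either strand, in 200 bp around the summit of the better-ranked peak. Shares have Wilson intervals of 95%, which cover counting error only. The work was done in Python 3.11.15 with numpy 2.4.6, pysam 0.24.0 and matplotlib 3.10.9 and was tested on simulated data.

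Sites named were those within 1500 bp of a member's start, the 2 highest-ranked of each member, those nearest to a member in 1 list, and those under H3K27me3 peaks, with the 5 genes that had the most sites of their own and those tied with them. Other sites were named after their values were seen. The members, gene lists and alternatives were chosen with earlier results of these data known. Some items are not reported here.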

Additional observations from a re-analysis of the deposited data

How the results depend on the processing

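Of 78 values recomputed under other settings, 56 stayed within 1.5 times the reported value or within its interval and 22 moved. All are counts or percentages, which cannot change sign. The order of the sites listed once turned around. With lists of equal length 9 were +DOX only and 11 -DOX only, in place of 13 and 10. A -log10 q of at least 5 left 4 sites only in the -DOX-labelled library. A -log10 q of at least 10 left 27 sites, 2 only in the -DOX-labelled library, 8 only in the +DOX-labelled library, 16 nearest to a member, 1 H3K27me3 region and 0 sites under one. The gene bodies alone held 26 sites, 3 of them -DOX only and 7 +DOX only. A flank of 10 kb gave 32 sites, 5 -DOX only and 7 +DOX only, and one of 100 kb gave 20 +DOX only and 12 H3K27me3 regions. Each of these settings altered the number of peaks or the length of sequence kept, and the cause of the changes was not tested. The 6-letter RUNX word in place of the 7-letter one gave 46.2%. Extending H3K27me3 peaks by 1000 bp gave 4 RUNX1 sites under one. Exchanging the labels of the RUNX1 libraries exchanged the 10 and 13 sites listed once. In alternatives chosen after seeing the data, the number of protein-coding genes with more sites of their own than Runx1, reported as 8, was 4 with the +DOX-labelled library alone, 5 with either limit on -log10 q, and 2 with protein-coding starts only. Runx1 had 6 sites of its own at the stricter limit of 10. No paired analysis was possible because each condition had 1 library. Leaving out a replicate was not possible for the same reason.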
